A study of Anolis sagrei with 10 samples.

Results

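In limb buds of the brown anole (*Anolis sagrei*, a lizard), 55 named genes other than the HOX, TBX, SALL and chordin genes had a higher value in each of the 5 forelimb libraries than in any of the 5 hindlimb libraries. They were drawn from 25920 gene identifiers by 3 conditions. The gene had a symbol in the table of the limb comparison that the authors deposited, its mean over the 10 libraries was at least 1 CPM (the count divided by the library's total count and scaled to a common total), and its lowest forelimb value exceeded its highest hindlimb value. Symbols starting with HOX, TBX, SALL, CHRD or LOC were set aside. The identifiers are Ensembl numbers of the related green anole, *Anolis carolinensis*, and the genome build was not given in the sources used here. Of the 9447 genes that met the first 2 conditions after this step, the 55 made up 0.582%. The opposite arrangement, every hindlimb library above every forelimb library, was met by 59 genes, or 0.625%. Since the forelimb and hindlimb values chose the members, their direction is the rule itself and no test of it is given. All values of the members below are descriptions.

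The libraries came from wild-type embryos at stage 7, with 5 libraries of forelimb buds and 5 of hindlimb buds, numbered 1 to 5 in each limb. Buds were collected as pairs, and total RNA was used for libraries of polyadenylated RNA. The embryos behind a library, their sex and what a replicate number marks are not stated in the labels. The study concerns limb identity and gene networks shared between species, and the comparison here is of both limb types of a single lizard species at a single stage.

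Forelimb and hindlimb buds grow from the flank by the same signals, with FGF from the ectodermal ridge, Sonic hedgehog from the posterior margin and Wnt from the ectoderm acting on a common mesenchyme. The type of limb is set by a few transcription factors, TBX5 in forelimb and PITX1 and TBX4 in hindlimb, on top of HOX genes read out by position along the body. Many genes that act downstream in growth, matrix, nerve attraction and girdle formation are used by both limbs. The forelimb girdle holds the scapula, for which the homeobox gene *Emx2* is required in mouse.

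The labels of both limbs were checked with limb-type genes. TBX5 ran from 421 to 568 CPM in forelimb and from 0.929 to 2.94 CPM in hindlimb, and PITX1 from 0.156 to 0.548 CPM in forelimb and from 23.9 to 45.8 CPM in hindlimb. Of 10 listed markers of limb mesenchyme 4 had a symbol, and their summed level ran from 234 to 300.2 CPM in forelimb and from 207 to 275 CPM in hindlimb. Total counts ran from 41808148 to 54998469 per library. Hindlimb replicate 4 stood apart. Its most abundant 100 genes held 25.1% of its counts, against 19.1% to 22.4% elsewhere, and its factor in TMM scaling (a scaling that allows for such genes) was 0.928 against 0.984 to 1.03. The summed level of its cartilage markers was 624 CPM against 1460.4 to 1927 CPM in the other hindlimb libraries, that of endothelium 52.5 against 85.9 to 121 CPM, and that of ectoderm 631 against 435 to 523 CPM. Neural crest and Schwann markers were at 56.6 against 93.9 to 121 CPM, and macrophage markers at 10.9 against 19.5 to 22.2 CPM. Mesonephros, myoblast and somite markers were lowest of the limb there as well. Blood, neuron, heart and limb mesenchyme markers lay within the range of the other hindlimb libraries. Leaving it out lowered the ratio of 48 of the 55 members, at most to 0.849 of its value (*HS6ST3*). The share lowered among all 9447 genes was not counted, so the 48 is not read as a trait of the members. This library was the lowest of its limb in 38.6% of all 9447 genes. Ratios without it are given for most members whose libraries are listed.

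The differences of the members were small. The ratio of the forelimb mean to the hindlimb mean ran from 1.09 (*ATP6V1C1*, a subunit of the vacuolar proton pump) to 2.75 (*NPY*, a neuropeptide), with a median of 1.35, while the median over all 9447 genes was 1.002. Without hindlimb replicate 4 the median of the members was 1.30 and the range 1.08 to 2.62. The ratio was at least 2 in 5 members, from 1.5 to 2 in 14, from 1.25 to 1.5 in 21 and under 1.25 in 15. Among the 9447 genes, 31 had a ratio of at least 2, or 0.328%, and 121, or 1.28%, had one of at least 1.5, so most genes with a ratio of that size had overlapping limbs. The genes higher in every hindlimb library had a median ratio of hindlimb to forelimb of 1.46, and 13 of those 59 reached 2. Mean levels of the members ran from 1.62 to 694 CPM with a median of 31.9 CPM, beside a median of 33.0 CPM over the 9447 genes. CPM is not adjusted for transcript length, so levels of different genes are not compared here.

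**Figure D1:**
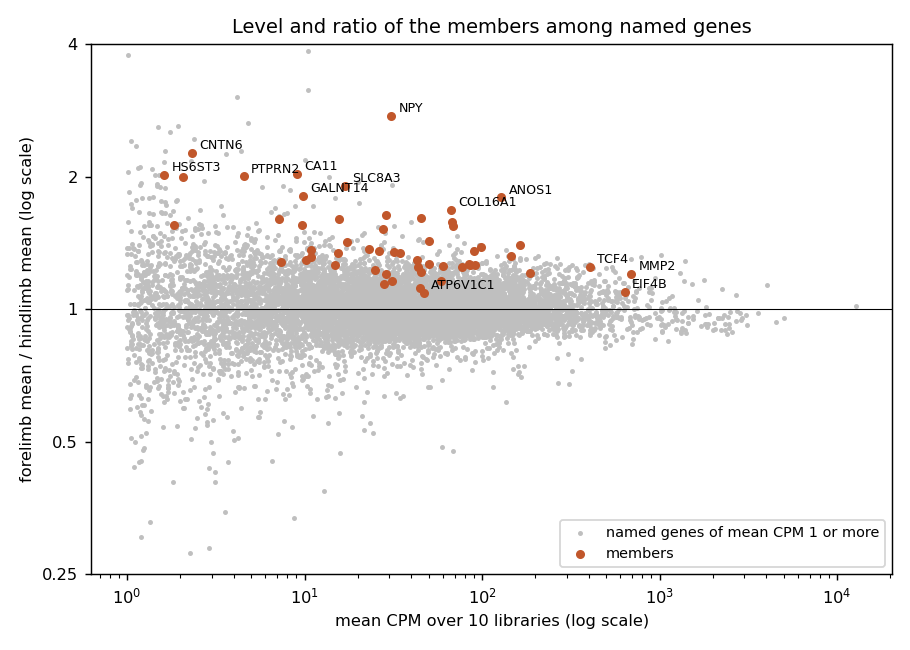
Each point is a named gene, with its mean CPM over the 10 libraries on the x axis (log scale) and the ratio of the forelimb mean to the hindlimb mean on the y axis (log scale). The 55 members are orange and lie between ratios of 1.09 and 2.75, with NPY highest, and 10 of the 9447 grey genes fall outside the plotted range.

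Of the 5 members with a ratio of at least 2, 4 were put in a group named for secretory vesicles and excitable cells. They were *NPY* and *PTPRN2*, of dense-core vesicles, the neuronal adhesion gene *CNTN6*, and *CA11*, a secreted protein placed here by choice. The functional grouping was made after the members were known and describes them only. The share of such genes among all 9447 was not counted. *NPY* (ENSACAG00000013388), a neuropeptide released from dense-core vesicles, was at 42.9, 46.7, 54.8, 37.98 and 42.8 CPM in forelimb replicates 1 to 5 and at 19.4, 22.6, 14.9, 13.3 and 11.8 CPM in hindlimb replicates 1 to 5. The lowest forelimb value was 1.68 times the highest hindlimb value, the widest separation among the 55. Its means were 45.03 ± 6.27 CPM in forelimb and 16.4 ± 4.49 CPM in hindlimb (SD, n = 5 each), a ratio of 2.75 and 2.62 without hindlimb replicate 4. In pairs of libraries with the same number, the forelimb value was 2.07 to 3.67 times the hindlimb value. Of the other genes of this peptide system, looked up afterwards, the receptor *NPY1R* had means of 5.51 ± 3.17 CPM in forelimb and 6.61 ± 2.26 CPM in hindlimb (SD, n = 5 each) with overlapping limbs, and the receptors *NPY2R* and *NPY5R* had means under 1 CPM in both limbs. The related peptide gene *PYY* had means of 1.03 ± 0.492 CPM in forelimb and 0.576 ± 0.35 CPM in hindlimb (SD, n = 5 each), a ratio of 1.78, with overlapping limbs.

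*PTPRN2* and *PTPRN* encode the related dense-core vesicle proteins phogrin and IA-2. *PTPRN2* (ENSACAG00000011694) was at 6.86, 5.36, 7.19, 6.0 and 4.87 CPM in forelimb replicates 1 to 5 and at 1.603, 3.36, 3.99, 3.002 and 3.16 CPM in hindlimb replicates 1 to 5. Hindlimb replicate 1 was the lowest library and the ratio was 2.004, and 2.0 without hindlimb replicate 4. *PTPRN* ran from 28.5 to 34.1 CPM in forelimb and 24.5 to 28.1 CPM in hindlimb, a ratio of 1.203 with the limbs nearly in contact. *CA11* (ENSACAG00000015821), a secreted relative of carbonic anhydrases that lacks their activity, was at 9.57, 11.4, 13.3, 12.3 and 14.03 CPM in forelimb replicates 1 to 5 and at 7.75, 4.42, 5.13, 5.31 and 7.31 CPM in hindlimb replicates 1 to 5. Forelimb replicate 1 was the lowest forelimb library and hindlimb replicate 1 the highest hindlimb library, and the ratio was 2.03. *CNTN6* (ENSACAG00000010425), an adhesion molecule of neurons, was at 3.64, 2.88, 2.56, 4.07 and 3.03 CPM in forelimb replicates 1 to 5 and at 0.885, 2.55, 0.665, 1.096 and 1.95 CPM in hindlimb replicates 1 to 5. Hindlimb replicate 2 reached 2.55 CPM beside the lowest forelimb value of 2.56 CPM, so the ratio of 2.26 came with almost no gap. For *CNTN6*, *CA11* and *PTPRN* the ratios without hindlimb replicate 4 were 2.14, 1.97 and 1.23. *CNTN5*, a relative looked up afterwards, lay the other way round, at 5.77 to 9.601 CPM in forelimb and 10.8 to 20.5 CPM in hindlimb.

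*SLC8A3* (ENSACAG00000022701), a sodium-calcium exchanger of the plasma membrane, was at 28.1, 19.1, 21.7, 23.7 and 18.2 CPM in forelimb replicates 1 to 5 and at 10.02, 15.1, 11.05, 11.1 and 10.9 CPM in hindlimb replicates 1 to 5. Its means were 22.2 ± 3.94 CPM in forelimb and 11.6 ± 2.002 CPM in hindlimb (SD, n = 5 each), a ratio of 1.904, and hindlimb replicate 2 lay above the other hindlimb libraries. *OXTR* (ENSACAG00000011241), the receptor of oxytocin, was at 12.5, 12.3, 13.4, 11.1 and 9.801 CPM in forelimb replicates 1 to 5 and at 8.204, 6.98, 7.53, 7.34 and 8.16 CPM in hindlimb replicates 1 to 5. The lowest forelimb value was 1.19 times the highest hindlimb value, with coefficients of variation of 11.9% in forelimb and 6.96% in hindlimb. The ratio was 1.55. *CSMD3* (ENSACAG00000003719), a large membrane protein with CUB and sushi domains, was at 61.3, 44.9, 65.7, 47.7 and 61.2 CPM in forelimb replicates 1 to 5 and at 43.8, 34.9, 35.6, 20.8 and 39.2 CPM in hindlimb replicates 1 to 5. Hindlimb replicate 1 nearly met forelimb replicate 2, and the ratio of 1.61 became 1.46 without hindlimb replicate 4. The remaining genes of this group were close to the limit. *LRRC4C* ran from 10.7 to 13.9 CPM in forelimb and 6.79 to 10.6 CPM in hindlimb, a ratio of 1.31 for this netrin-G ligand. *NXPH3* ran from 7.19 to 9.44 CPM in forelimb and 5.65 to 7.104 CPM in hindlimb, a ratio of 1.28 for this ligand of neurexins. For *SLC8A3*, *OXTR*, *LRRC4C* and *NXPH3* the ratios without hindlimb replicate 4 were 1.88, 1.53, 1.23 and 1.24.

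**Figure D2:**
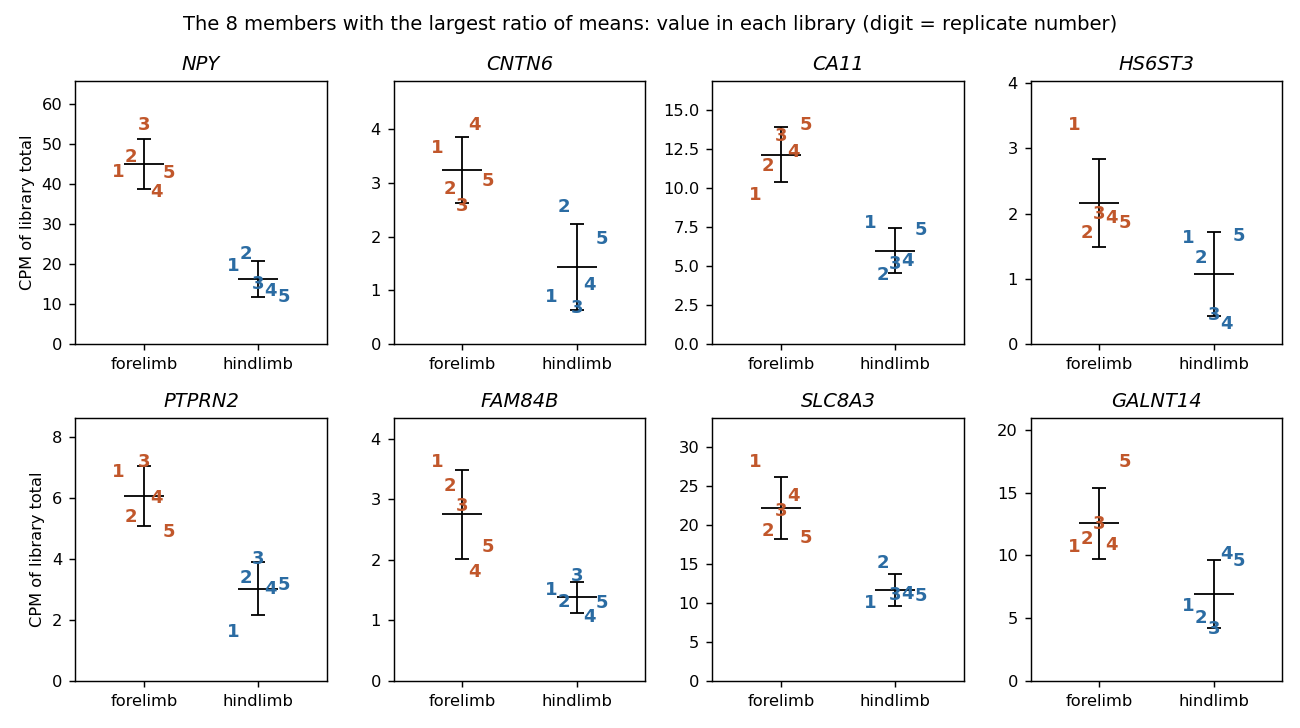
Each panel shows one of the 8 members with the largest ratio of means, with CPM of the library total on the y axis and each library drawn as its replicate number. Horizontal bars are means and whiskers are SD (n = 5), and NPY is the panel with the widest space between the limbs while the CNTN6 and HS6ST3 limbs nearly meet.

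The lists of markers of neurons and of Schwann and neural crest cells, chosen with earlier results of these data known, held none of these genes. Members made up 0.582% of the 9447 named genes, so lists this short could be expected to hold none, and nothing is read from it. The summed level of 7 neuron markers with a symbol ran from 27.3 to 42.5 CPM in forelimb and from 33 to 43.2 CPM in hindlimb, and that of 5 neural crest and Schwann markers from 75.8 to 103 CPM and from 56.6 to 121 CPM. The 56.6 CPM was that of hindlimb replicate 4, and the other hindlimb libraries were at 93.9 CPM or more. The synaptic vesicle gene *SYT1* was the neuron marker that lay apart, in the direction opposite to the members, at 7.62 to 13.3 CPM in forelimb and 13.7 to 17.6 CPM in hindlimb. The fitted difference of *SYT1* was -0.59 ± 0.16 (SE) on the log2 scale. Of the 7 neuron markers DESeq2 called this 1 as higher in hindlimb while edgeR without or with the block and limma voom called 0, with 1 at an unadjusted edgeR p under 0.05. The summed levels of both lists overlapped between the limbs and none of their markers was at 0 throughout. In bulk tissue, more cells of a type and more RNA per cell cannot be told apart, which holds for every gene given here.

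Matrix and secreted proteins formed a group of 8 with ratios from 1.204 to 1.79. *ANOS1* (ENSACAG00000000439), or anosmin, which binds heparan sulfate and modulates FGF signalling, was at 184, 128, 189, 176 and 147 CPM in forelimb replicates 1 to 5 and at 74.8, 109, 83.7, 80.7 and 112 CPM in hindlimb replicates 1 to 5. Its means were 165 ± 26.4 CPM in forelimb and 91.9 ± 16.97 CPM in hindlimb (SD, n = 5 each), a ratio of 1.79 and 1.74 without hindlimb replicate 4. Forelimb replicate 2 was the lowest of its limb, at 1.14 times the highest hindlimb value. *GPC1* (ENSACAG00000002329), a glypican that carries heparan sulfate chains, was at 223, 175, 215, 179 and 158 CPM in forelimb replicates 1 to 5 and at 156, 132, 151, 92.3 and 147 CPM in hindlimb replicates 1 to 5. The highest hindlimb value, in replicate 1, was just below the lowest forelimb value, in replicate 5, and the ratio of 1.4 became 1.296 without hindlimb replicate 4. The glypican *GPC4*, looked up afterwards, had means of 177 ± 18.3 CPM and 177 ± 18.9 CPM (SD, n = 5 each).

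Collagens of the set were *COL16A1*, a fibril-associated collagen, and *COL7A1*, the collagen of anchoring fibrils below epithelia. *COL16A1* (ENSACAG00000012220) was at 82.6, 76.99, 93.8, 74.5 and 90.01 CPM in forelimb replicates 1 to 5 and at 55.04, 46.8, 66.2, 31.9 and 48.9 CPM in hindlimb replicates 1 to 5. Hindlimb replicate 4 was lowest, and the ratio of 1.68 was 1.54 without it. *COL7A1* (ENSACAG00000000604) was at 53.3, 67.5, 59, 56.3 and 58.8 CPM in forelimb replicates 1 to 5 and at 42.5, 48.8, 47.9, 28.2 and 39.4 CPM in hindlimb replicates 1 to 5. Here too hindlimb replicate 4 was lowest, with ratios of 1.43 and 1.32. The gelatinase *MMP2* (ENSACAG00000016520) was at 728, 774, 804, 725 and 762 CPM in forelimb replicates 1 to 5 and at 602, 677, 639, 514 and 719 CPM in hindlimb replicates 1 to 5. Forelimb replicate 4 was only just above hindlimb replicate 5, and the ratio was 1.204. *FREM3* (ENSACAG00000003206), a matrix protein of the FRAS1 and FREM family, was at 149, 185, 167, 169.9 and 157 CPM in forelimb replicates 1 to 5 and at 148, 129.6, 132, 102 and 115 CPM in hindlimb replicates 1 to 5. Forelimb replicate 1 and hindlimb replicate 1 were nearly equal, and the ratio was 1.32. Its relative *FREM1*, looked up afterwards, had a ratio of 1.32 with overlapping limbs. *PCSK5* ran from 104 to 136 CPM in forelimb and 71.2 to 96.3 CPM in hindlimb, a ratio of 1.38, and 1.33 without hindlimb replicate 4, for this proprotein convertase. *SPON1* ran from 41.7 to 59.1 CPM in forelimb and 33.4 to 41.5 CPM in hindlimb, a ratio of 1.29 for F-spondin. For *MMP2*, *FREM3* and *SPON1* the ratios without hindlimb replicate 4 were 1.15, 1.26 and 1.26.

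Of these 8 matrix and secreted genes, 7 had their lowest hindlimb value in hindlimb replicate 4, and 38.6% of all 9447 genes did. That library was lowest of its limb for several lists of cell type markers, cartilage and endothelium among them, and highest for ectoderm. The part of these differences in the values of the group was not tested. Without that library the 8 ratios ran from 1.15 to 1.74, and a ratio above 1 is fixed by the rule.

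Enzymes that build or modify glycans gave 5 members. *HS6ST3* (ENSACAG00000001133), a sulfotransferase of heparan sulfate, was at 3.36, 1.697, 1.99, 1.93 and 1.86 CPM in forelimb replicates 1 to 5 and at 1.63, 1.32, 0.4504, 0.3097 and 1.65 CPM in hindlimb replicates 1 to 5. Forelimb replicate 1 was far above the other forelimb libraries and hindlimb replicates 3 and 4 were far below the other hindlimb libraries. The lowest forelimb value, in replicate 2, was close to the highest hindlimb value, in replicate 5, and the ratio of 2.02 became 1.72 without hindlimb replicate 4. Counts were low, from 13 to 78 in hindlimb and from 76 to 143 in forelimb. *GALNT14* (ENSACAG00000007314), which starts mucin-type O-glycans, was at 10.7, 11.3, 12.5, 10.8 and 17.5 CPM in forelimb replicates 1 to 5 and at 5.98, 4.99, 4.16, 10.1 and 9.54 CPM in hindlimb replicates 1 to 5. Hindlimb replicates 4 and 5 reached nearly the lowest forelimb values, and the ratio of 1.81 was 2.04 without the former. *ST6GALNAC5* (ENSACAG00000005827), a sialyltransferase of gangliosides, was at 17.9, 19.7, 19.98, 14.6 and 23.8 CPM in forelimb replicates 1 to 5 and at 12.7, 12.1, 13.6, 10.03 and 11.7 CPM in hindlimb replicates 1 to 5. The hindlimb libraries were close together and the ratio was 1.598, and 1.53 without hindlimb replicate 4. *B3GNT9* (ENSACAG00000013122), an N-acetylglucosaminyltransferase, was at 2.16, 2.03, 2.49, 2.0 and 2.46 CPM in forelimb replicates 1 to 5 and at 1.79, 1.21, 1.72, 0.476 and 1.99 CPM in hindlimb replicates 1 to 5. Hindlimb replicate 4 was far below all others while hindlimb replicate 5 nearly met forelimb replicate 4, and the ratio was 1.55 with hindlimb replicate 4 and 1.33 without it. *MGAT4B* ran from 44.9 to 50.2 CPM in forelimb and 41.1 to 43.3 CPM in hindlimb, a ratio of 1.12, for an enzyme that branches N-glycans.

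Guidance molecules gave 3 members. *SEMA3G* (ENSACAG00000012079), a secreted class 3 semaphorin, was at 50.7, 30.2, 31.1, 34.02 and 31.4 CPM in forelimb replicates 1 to 5 and at 27.1, 25.5, 21.1, 12.1 and 22.98 CPM in hindlimb replicates 1 to 5. Forelimb replicate 1 was the highest and hindlimb replicate 4 the lowest by wide margins, and the ratio of 1.63 became 1.47 without the latter. *SEMA5A* ran from 58.3 to 74.4 CPM in forelimb and 50.1 to 57.1 CPM in hindlimb, a ratio of 1.25 for this transmembrane semaphorin. *EPHA3* ran from 87.2 to 106 CPM in forelimb and 59.9 to 84.5 CPM in hindlimb, a ratio of 1.27 for this receptor of ephrin-A ligands. All 3 had their lowest hindlimb value in hindlimb replicate 4, as did 38.6% of all 9447 genes. Without that library the ratios of *SEMA5A* and *EPHA3* were 1.23 and 1.21. Of 31 tested genes of a list of axon guidance genes, which held *EPHA3* and *SEMA5A*, none passed an adjusted p of 0.05 in edgeR's quasi-likelihood test over 15595 genes, and 7 had an unadjusted p under 0.05. How many of all 15595 genes had such an unadjusted p was not counted. Nothing is therefore read from the 7 or from such counts of the other lists. Blocking on the replicate number, the fit called 2 with forelimb higher and 3 with hindlimb higher, none of them a member. DESeq2 called 1 and limma voom 0 without the block. *SLIT2*, a repellent ligand, was among those higher in hindlimb, at 88.5 to 129 CPM in forelimb and 122 to 214 CPM in hindlimb with overlapping limbs.

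Signalling genes gave 12 members, and they began with ligands. *WNT3*, a Wnt ligand, was at 14.9, 15.3, 17.4, 16.2 and 18.4 CPM in forelimb replicates 1 to 5 and at 13.1, 12.9, 12.5, 12.5 and 14.3 CPM in hindlimb replicates 1 to 5, a ratio of 1.26. The 2 nuclear effectors of Wnt signalling *LEF1* and *TCF7* were also members. *LEF1* was at 50.8, 49.3, 47.05, 43.7 and 49.7 CPM in forelimb and at 42.4, 36.3, 40.6, 35.4 and 38.8 CPM in hindlimb, a ratio of 1.24. *TCF7* was at 9.94, 12.7, 10.9, 10.3 and 13.3 CPM in forelimb and at 6.96, 9.79, 8.58, 9.84 and 9.09 CPM in hindlimb, a ratio of 1.29. In all 3 genes the lowest forelimb library was close to the highest hindlimb library. The related *TCF7L1*, looked up afterwards, had a ratio of 1.15 with overlapping limbs. In a list of Wnt genes that held these 3, none of the 30 tested passed in edgeR without the block, in DESeq2 or in limma voom, and 5 had an unadjusted edgeR p under 0.05. With the block 1 gene was higher in forelimb, the receptor *FZD4* (log2 fold change 0.62, edgeR adjusted p 0.0396), and 1 higher in hindlimb, the secreted antagonist *SFRP2* (-0.52, edgeR adjusted p 0.0397). Neither was a member, since the limbs overlapped for *FZD4* and *SFRP2* was lower in forelimb.

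Genes of the Notch pathway in the set were *DLL1*, a Notch ligand, *NEURL1B*, a ubiquitin ligase that acts on such ligands, and *DLK2*, a Delta-like protein without the domain that binds Notch. *DLL1* ran from 26.3 to 29.6 CPM in forelimb and 17.8 to 25.2 CPM in hindlimb, a ratio of 1.22. *NEURL1B* ran from 52.2 to 61.7 CPM in forelimb and 38.2 to 47.5 CPM in hindlimb, a ratio of 1.27. *DLK2* ran from 11.02 to 14.3 CPM in forelimb and 7.57 to 10.6 CPM in hindlimb, a ratio of 1.36. The ligands *DLL4*, *JAG1* and *JAG2*, looked up afterwards, had overlapping limbs and ratios of 1.15, 1.08 and 1.16. *DUSP6*, an ERK phosphatase switched on by FGF signalling, was at 107, 91.1, 104, 86.8 and 89.3 CPM in forelimb and at 81.3, 84.6, 79.9, 70.5 and 64.3 CPM in hindlimb, a ratio of 1.26. Other genes of that feedback, looked up afterwards, had overlapping limbs. Their ratios were 1.14 for *SPRY1*, 1.17 for *SPRY2*, 1.32 for *SPRY4*, 1.08 for *ETV4* and 1.23 for *ETV5*. Those of *SPRED1* and *SPRED2* were 1.09 and 1.08. The relatives *DUSP4*, *DUSP7* and *DUSP9*, also with overlapping limbs, had ratios of 1.06, 1.05 and 1.32.

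The other signalling members act inside the cell as enzymes and adaptors. *TIAM1* (ENSACAG00000022492), an exchange factor of the GTPase RAC1, was at 205, 209, 209.7, 210.5 and 184 CPM in forelimb replicates 1 to 5 and at 171, 171, 165, 167 and 169 CPM in hindlimb replicates 1 to 5. The hindlimb libraries were close to one another, forelimb replicate 5 was the lowest of its limb, and the ratio was 1.21. *PLCD1* ran from 27.4 to 33.3 CPM in forelimb and 18.4 to 24.4 CPM in hindlimb, a ratio of 1.36 for this phospholipase C. *PDE3A* ran from 34.95 to 42.8 CPM in forelimb and 19.5 to 33.6 CPM in hindlimb, a ratio of 1.35 for this phosphodiesterase of cyclic nucleotides. These enzymes act on lipid and nucleotide second messengers. *MAST1* ran from 24.7 to 31.2 CPM in forelimb and 13.6 to 23.1 CPM in hindlimb, a ratio of 1.37 for a serine-threonine kinase. *OXSR1* ran from 87.05 to 108 CPM in forelimb and 70.6 to 86.2 CPM in hindlimb, a ratio of 1.26 for a kinase of the osmotic stress response. *ABLIM3* ran from 16.8 to 23.7 CPM in forelimb and 11.3 to 16.2 CPM in hindlimb, a ratio of 1.42 for this actin-binding protein. *SKAP2* (ENSACAG00000010455), an adaptor of Src family kinases, was at 8.84, 9.4, 8.59, 9.18 and 7.96 CPM in forelimb replicates 1 to 5 and at 3.95, 5.72, 5.43, 4.53 and 7.88 CPM in hindlimb replicates 1 to 5. Hindlimb replicate 5 was almost level with forelimb replicate 5, and the ratio was 1.598. Of 22 tested genes from a list of neighbours of the HOX clusters none was called by edgeR without or with the block, by DESeq2 or by limma voom, 2 had an unadjusted edgeR p under 0.05, and *SKAP2* was the only member among them. For *TIAM1*, *SKAP2*, *PLCD1* and *PDE3A* the ratios without hindlimb replicate 4 were 1.204, 1.53, 1.34 and 1.26. The RefSeq gene table of the brown anole (assembly rAnoSag1.mat) held 53 members by symbol, and 3 pairs of members lay within 10 genes of each other, *PLCD1* with *OXSR1*, *MGST1* with *PDE3A* and *ABLIM3* with *NEURL1B*.

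Transcription factors and other nuclear proteins gave 9 members, with *LEF1* and *TCF7* above. *EYA4* (ENSACAG00000010346), a coactivator that partners homeodomain proteins of the sine oculis class, was at 122, 74.1, 74.8, 72.8 and 74.96 CPM in forelimb replicates 1 to 5 and at 51.9, 57.3, 62.2, 41.98 and 58.3 CPM in hindlimb replicates 1 to 5. Forelimb replicate 1 was far above the other forelimb libraries, which were nearly equal, and the ratio was 1.54 with it and 1.36 without it. Its relatives *EYA1*, *EYA2* and *EYA3*, looked up afterwards, had overlapping limbs and ratios of 1.15, 0.909 and 1.01. For *EYA4*, *TCF4*, *LEF1* and *TCF7* the ratios without hindlimb replicate 4 were 1.46, 1.21, 1.22 and 1.33. *EMX2* (ENSACAG00000010339), the homeobox gene of the mouse scapula, was at 35.99, 29.4, 28.6, 38.8 and 33.4 CPM in forelimb replicates 1 to 5 and at 22.2, 17.8, 19.6, 27.2 and 22.2 CPM in hindlimb replicates 1 to 5. Hindlimb replicate 4, the highest of its limb here, came close to forelimb replicate 3, and the ratio of 1.52 was 1.62 without it. After TMM scaling its limbs overlapped. Same-number pairs gave ratios from 1.43 to 1.65, a narrow span. In a list of forelimb field and shoulder girdle genes, none of 19 tested was called by edgeR without the block, by DESeq2 or by limma voom, and 5 had an unadjusted edgeR p under 0.05. With the block *EMX2* and *OSR2*, a zinc finger factor of joints and limb mesenchyme, were called, *OSR2* at 0.47 on the log2 scale (edgeR adjusted p 0.0432). *OSR2* missed the rule narrowly, with 33.1 CPM in the lowest forelimb and 33.4 CPM in the highest hindlimb library.

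*TCF4* (ENSACAG00000008863), an E-protein of the basic helix-loop-helix class, was at 466, 471, 486, 421 and 405 CPM in forelimb replicates 1 to 5 and at 404, 362, 368, 314 and 353 CPM in hindlimb replicates 1 to 5. Forelimb replicate 5 and hindlimb replicate 1 were almost level, and the ratio of means was 1.25. *TSHZ1*, a teashirt zinc finger factor, was at 99.4, 101, 117, 99.1 and 103 CPM in forelimb and at 81.8, 80.9, 84.4, 53.9 and 81.1 CPM in hindlimb, a ratio of 1.36 and of 1.26 without hindlimb replicate 4, which lay far below the rest. *TEAD2* ran from 30.8 to 35.6 CPM in forelimb and 26.9 to 30.5 CPM in hindlimb, a ratio of 1.16 for this partner of YAP and TAZ. *KLF6* ran from 27.9 to 30.97 CPM in forelimb and 24.8 to 26.9 CPM in hindlimb, a ratio of 1.14 for this zinc finger factor. *NELFB* ran from 59.7 to 71.4 CPM in forelimb and 50.1 to 58.6 CPM in hindlimb, a ratio of 1.16 for a subunit of the complex that holds RNA polymerase near promoters. The relatives *TEAD1*, *TEAD3*, *TSHZ2* and *TSHZ3*, looked up afterwards, had overlapping limbs and ratios of 1.08, 1.12, 1.11 and 1.46.

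Over all 48 relatives with a mean of at least 1 CPM that were looked up, the median ratio was 1.09, none was higher in every forelimb library, and 1, *CNTN5*, was higher in every hindlimb library. As a named relative that met the rule would itself be a member, the forelimb count of 0 is fixed by the choice and says nothing about the relatives. With the replicate block edgeR called the relatives *TSHZ3*, *FREM1*, *ETV5* and *EPHA4* as higher in forelimb (adjusted p 0.0149, 0.0231, 0.0414 and 0.0438). It called *CNTN5*, *EPHA7* and *SEMA3E* as higher in hindlimb (adjusted p 0.0170, 0.0349 and 0.0356). Of all 15595 tested genes the block fit called 0.705% as higher in forelimb and 0.628% as higher in hindlimb. The relatives were picked once the members were known, so no excess over these shares is read from the calls. Without the block edgeR called none of these relatives. Calls with the block were thus not confined to the members.

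**Figure D3:**
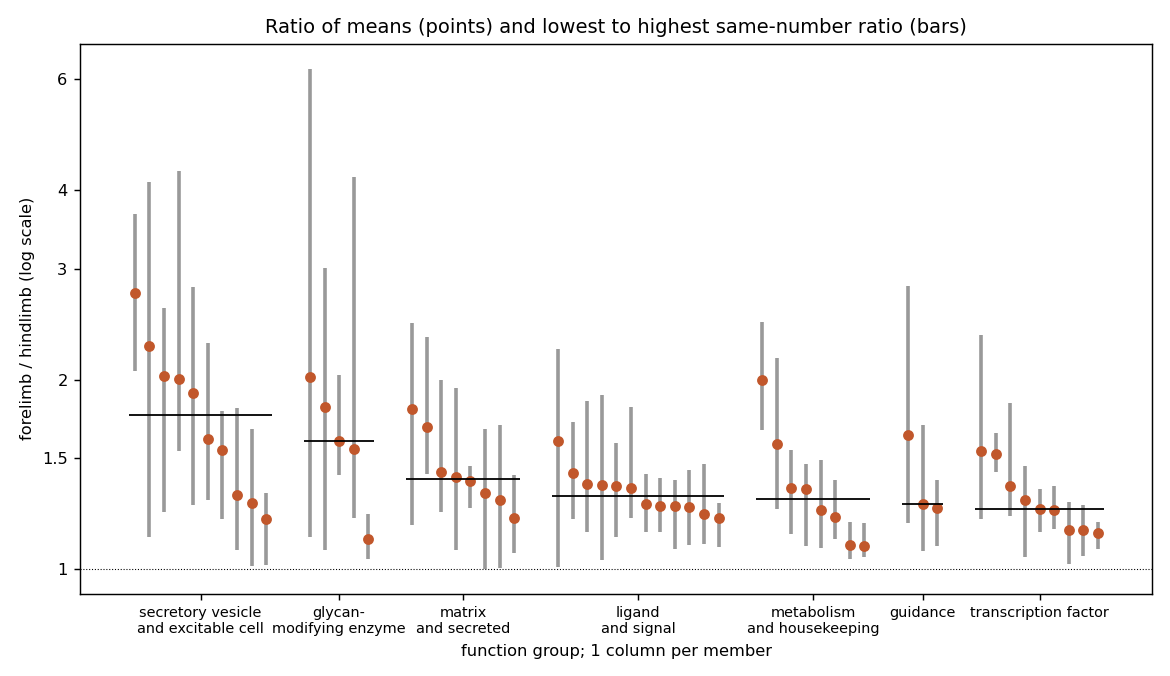
Each column is a member, grouped by function and sorted by ratio; the point is the forelimb mean over the hindlimb mean (log scale), the grey bar runs from the lowest to the highest ratio between libraries of the same replicate number, and the black line is the group's median. The secretory and excitable cell group has the highest median, 1.76, and the transcription factors the lowest, 1.25, while single pairs reach 6.22 for HS6ST3. The groups were made after the members were known, so nothing is read from their order.

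Metabolic, housekeeping and unplaced genes made up the last 8. *MGST1* (ENSACAG00000014518), a microsomal glutathione transferase, was at 77.6, 91.3, 97.2, 69.4 and 77.9 CPM in forelimb replicates 1 to 5 and at 35.9, 65.97, 52.8, 44.8 and 62.4 CPM in hindlimb replicates 1 to 5. Hindlimb replicates 2 and 5 came closest to the lowest forelimb value, in replicate 4, and the ratio was 1.58. *FAM84B* (ENSACAG00000010363), of the LRAT-domain family, was at 3.62, 3.22, 2.89, 1.8 and 2.21 CPM in forelimb replicates 1 to 5 and at 1.51, 1.301, 1.74, 1.05 and 1.29 CPM in hindlimb replicates 1 to 5. Forelimb replicates 1 to 3 were clearly above forelimb replicates 4 and 5, and the ratio was 1.996 at counts of 44 to 154 per library. *EIF4B* (ENSACAG00000011869), a translation initiation factor, was at 668, 659, 658, 695 and 657 CPM in forelimb replicates 1 to 5 and at 643, 623, 595, 584 and 606 CPM in hindlimb replicates 1 to 5. All libraries were close, with coefficients of variation of 2.41% and 3.82%, and the ratio was 1.09. *ATP6V1C1* ran from 46.6 to 52.9 CPM in forelimb and 44.5 to 45.7 CPM in hindlimb, a ratio of 1.09. The other 4 are a peptidase, a nuclease relative, a chaperone and a membrane protein. *RNPEPL1* ran from 34.03 to 46.9 CPM in forelimb and 26.02 to 31.7 CPM in hindlimb, a ratio of 1.34 for the peptidase. *EEPD1* ran from 14.98 to 20.2 CPM in forelimb and 11.7 to 14.3 CPM in hindlimb, a ratio of 1.34 for the nuclease relative. *HSPA2* ran from 73.9 to 109 CPM in forelimb and 61.2 to 73.3 CPM in hindlimb, a ratio of 1.24 for the chaperone. In *LMBR1L*, the membrane protein, values ran from 45.7 to 60.5 CPM in forelimb and 36.6 to 43.6 CPM in hindlimb, a ratio of 1.21. For *MGST1*, *FAM84B*, *EIF4B*, *HSPA2* and *LMBR1L* the ratios without hindlimb replicate 4 were 1.52, 1.88, 1.08, 1.24 and 1.18.

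**Figure D4:**
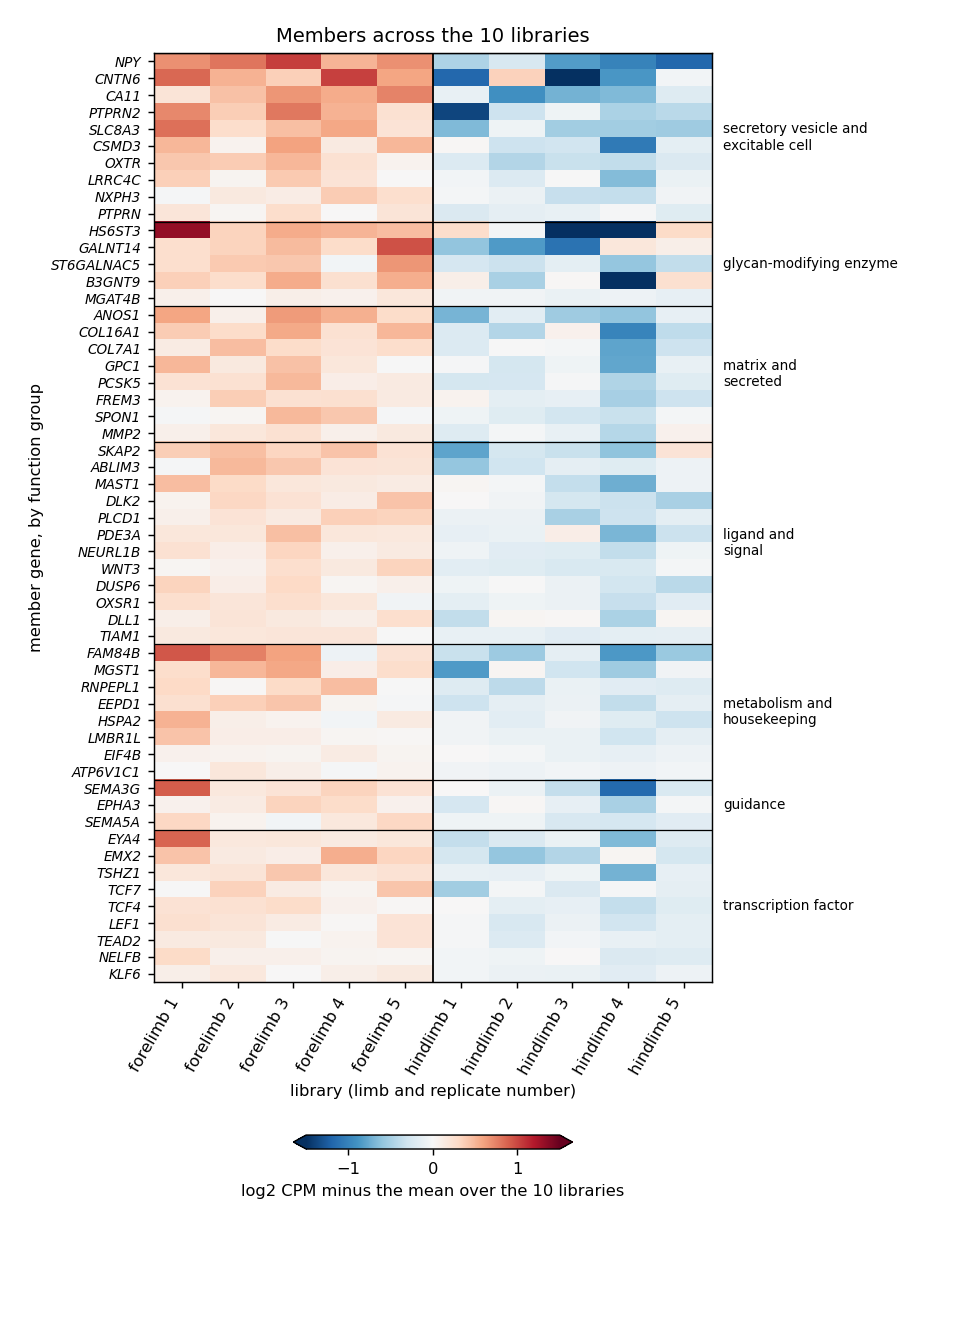
Rows are the 55 members by function group and columns are the 10 libraries; colour is log2 CPM minus the gene's mean over the 10 libraries, with values beyond 1.5 in size drawn at the end of the scale. The forelimb columns are redder throughout, by the rule, and hindlimb replicate 4 is the bluest column in many rows, lowest of its limb in 33 of 55.

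The libraries did not contribute evenly. Hindlimb replicate 4 held the lowest hindlimb value of 33 of the 55 members and of 38.6% of all 9447 genes. The median deviation of the members from their hindlimb mean was -0.18 on the log2 scale in this library, and that of all genes -0.10. Pairs of the same number gave median ratios of 1.32, 1.26, 1.39, 1.51 and 1.27 for numbers 1 to 5. Number 4 had the largest median ratio, and those of the other numbers lay between 1.26 and 1.39. In forelimb, replicate 3 held the highest value of 34.5% of the members and 20.5% of all genes, and replicate 1 that of 25.5% and 29.6%. Forelimb replicate 1 had a summed level of blood markers of 153 CPM against at most 15.3 CPM in the other forelimb libraries and 6.26 to 26.05 CPM in hindlimb. It was also the highest forelimb library for neuron markers, at 42.5 CPM against at most 36.4 CPM, and for somite markers, at 24.96 against at most 19.1 CPM. For the pathway lists of the forelimb field, insulin-like growth factors and the G1 to S step it was highest too, at 1784, 871 and 769.6 CPM against at most 1606, 782 and 715 CPM. It was the highest for retinoic acid genes and for neighbours of TBX5 and of the HOX clusters as well. For myoblast, heart and mesonephros markers it was the lowest, at 257, 52.3 and 67.6 CPM. The medians of the 5 forelimb libraries were 429, 168 and 81.2 CPM and the highest values 514, 274 and 94.6 CPM. The part of these differences in the high values of *EYA4*, *SEMA3G* and *HS6ST3* in forelimb replicate 1 was not tested. Without forelimb replicate 1 the median ratio of the members was 1.34.

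**Figure D5:**
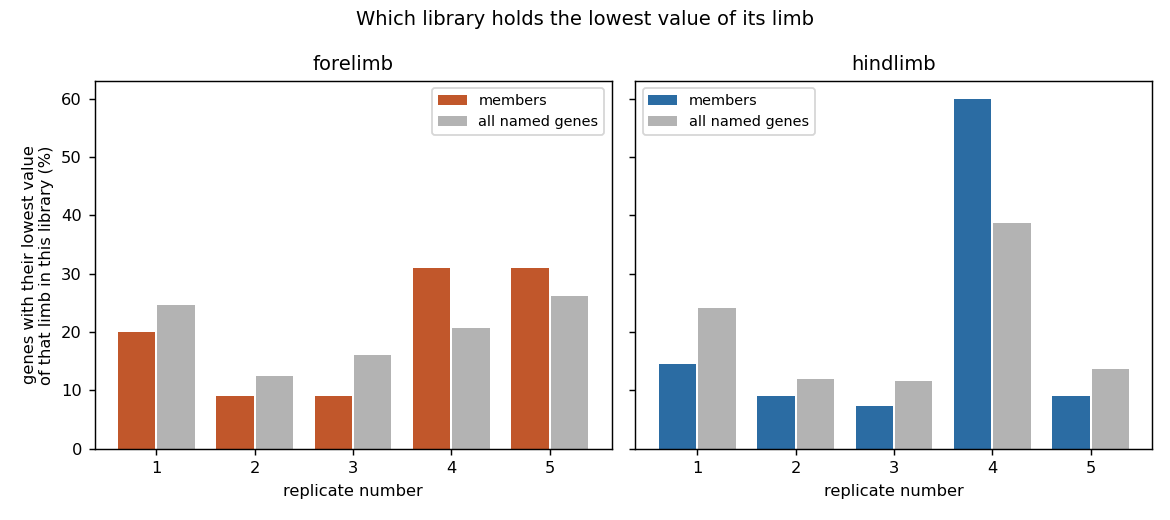
Bars give the percentage of genes whose lowest value of a limb lies in each library, for the 55 members (coloured) and for all 9447 named genes (grey), by replicate number. Hindlimb replicate 4 holds the lowest value for 33 of the 55 members and for 38.6% of the named genes.

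The scaling also bore on membership. After TMM scaling 45 of the 55 members kept every forelimb library above every hindlimb library, and 10 did not. The 10 were *GALNT14*, *EMX2*, *SPON1*, *TCF7*, *NXPH3*, *MMP2*, *PTPRN*, *TEAD2*, *MGAT4B* and *ATP6V1C1*, and their lowest forelimb value was then 0.914 to 0.996 times the highest hindlimb value. With CPM of the library totals the same quotient had a median of 1.04 over the members and was under 1.05 in 34 of them. Just inside the limit, *FREM3*, *CNTN6* and *TCF4* each had a quotient of 1.003. Just outside, *STK26* stood at 0.9999, *SH3RF2* and *GALNT7* at 0.999, and *MICAL1* and *RBPMS2* at 0.997. The ratios of means of these 5 were 1.08, 1.28, 1.12, 1.304 and 1.77 in the same order. Genes just inside and just outside the limit thus had almost the same quotient.

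In the fit across all 15595 tested genes, the members can be read beside the background. All 55 were tested, and edgeR's quasi-likelihood test called 3, *NPY*, *SLC8A3* and *ANOS1*, as higher in forelimb at an adjusted p under 0.05, while 0.103% of all genes were so called. Their log2 fold changes were 1.44 ± 0.17, 0.91 ± 0.16 and 0.82 ± 0.14 (SE). With the replicate number as a block 19 were called, beside 0.705% of all genes, among them *NPY* and *SLC8A3* but not *ANOS1*. *NPY* was called whichever of the 10 libraries was left out. *SLC8A3* kept its call only without hindlimb replicate 2 and *ANOS1* only without forelimb replicate 2 or hindlimb replicate 5, so that 1 member was called without forelimb replicates 1, 3, 4 or 5 or hindlimb replicates 1 or 4, and 2 without any of the others. Without hindlimb replicate 3 the second was *COL16A1*. DESeq2 called 16, beside 0.295% of all genes. The authors' deposited table called 13 members at an adjusted p under 0.05, beside 0.274% of genes with an adjusted p there, and 8 of these were among the 19. In the authors' deposited table *NPY* had a log2 fold change of 1.06 ± 0.13 (SE). The deposited value of *CNTN6* was 0.465 against 1.16 in edgeR, and that of *EIF4B* 0.106 against 0.111. Whether the authors' fold changes were shrunken (pulled toward no difference) is not stated in the sources used here. Their sizes are thus not compared with those of edgeR. Because the same limb contrast chose the members, nothing is read from these counts.

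Over all tested genes edgeR called 0.199% without the block and 1.33% with it, 0.628% as higher in hindlimb in the latter, DESeq2 0.648% and limma voom 0.18%. The 12 lists of cell type markers held none of the members. At a share of 0.582% among the 9447 named genes, few or none could be expected there, so nothing is read from it. Of 72 tested markers none was called by edgeR without the block or by limma voom, and 3 had an unadjusted edgeR p under 0.05. DESeq2 called 1, and the block fit called 1, the mesonephros and coelomic lining gene *WT1*, as higher in hindlimb. *WT1* was low, with means of 0.558 ± 0.531 CPM in forelimb and 1.84 ± 0.662 CPM in hindlimb (SD, n = 5 each). Its limbs overlapped, with a highest forelimb value of 1.43 CPM and a lowest hindlimb value of 1.10 CPM. The 8 pathway lists held 7 members among 143 tested genes, while members made up 0.582% of the 9447 named genes. These lists were chosen with earlier results of these data known, so nothing is read from the 7. None of the 143 was called by edgeR without the block or by limma voom, and 21 had an unadjusted edgeR p under 0.05. The share of all tested genes with such an unadjusted p was not counted, so nothing is read from the 21 or from the 3 markers. DESeq2 called 1, and the block fit called 5 as higher in forelimb and 4 as higher in hindlimb. The lists for retinoic acid, neighbours of TBX5, insulin-like growth factors and the G1 to S step of the cell cycle held no member and no call in either edgeR fit, by DESeq2 or by limma voom. Of their genes 1, 0, 0 and 1 had an unadjusted edgeR p under 0.05.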

How the data were processed

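Whole buds of both limbs were sequenced as stranded polyadenylated RNA libraries (mirVana extraction, TruSeq Stranded mRNA), per the labels' protocols. The authors deposited raw counts per gene for each library, and FastQC, STAR, featureCounts and DESeq2 are named in the submitters' processing notes. The sources used here do not give versions, genome build, annotation, strand setting or the treatment of reads with several matches. Genes with near-identical copies are thus uncertain. Per the file headers, the comparison table deposited by the authors gives for each gene a mean normalized signal, a log2 fold change and its error, a test score and p-values.

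CPM were computed from the counts and the library totals. All genes that passed edgeR's filter (minimum count 10, total 15) were tested by quasi-likelihood in edgeR 4.0.16 (R 4.3.3) after TMM scaling, with limb as the only term and Benjamini-Hochberg adjustment over all 15595 genes. DESeq2 1.42.0, limma 3.58.1 voom, other scalings, other filters, the replicate number as a block and leaving out each library were alternatives. Replicate numbers were taken to pair the libraries, since the deviations of same-numbered libraries correlated at 0.51 to 0.75 in all 5 pairs and those of other pairs at -0.41 to 0.12, over 9747 genes. The pairing comes from these values, for the labels do not say what a number marks. As nothing states that the libraries came from separate embryos, the p-values measure only the spread between these libraries.

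The members and lists were chosen with earlier results of these data known. Values in each library are given for the 20 members with the largest ratio, those called by edgeR, the 5 with the highest mean and the 3 closest to the limit, and for a few others chosen after their values were seen. Functional groups and relatives were also chosen after the members were known. Gene order was read from RefSeq (rAnoSag1.mat) by symbol for 53 members.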

Additional observations from a re-analysis of the deposited data

Results flagged for a closer look

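Sets of 5 values were formed for each member in each limb and for the library totals. In 13 of the 112 sets, 1 library lay far from the other 4 of its limb (Dixon's gap over range above 0.71). About 1 set in 20 would do so for independent, normally distributed values. These sets share libraries and hold members chosen by their values, so no excess is read from the 13. The share over all named genes was not counted. Forelimb replicate 1 was the high library in 6 of the 12 sets of gene values. *EYA4* was at 122 CPM there and at 72.8 to 74.96 CPM in the other forelimb libraries. *SEMA3G* was at 50.7 CPM against 30.2 to 34.0 CPM, and *HS6ST3* at 3.36 CPM against 1.70 to 1.99 CPM. *HSPA2* was at 109 CPM against 73.9 to 83.4 CPM, *LMBR1L* at 60.5 CPM against 45.7 to 48.5 CPM and *NELFB* at 71.4 CPM against 59.7 to 61.4 CPM.

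Forelimb replicate 3 was the high library of *TSHZ1*, at 117 CPM against 99.1 to 103 CPM, and of *PDE3A*, at 42.8 CPM against 34.9 to 35.3 CPM. Forelimb replicate 5 was high for *GALNT14*, at 17.5 CPM against 10.7 to 12.5 CPM, and low for *TIAM1*, at 184 CPM against 205 to 210.5 CPM. In hindlimb, replicate 4 was low for *TSHZ1*, at 53.9 CPM against 80.9 to 84.4 CPM, and replicate 2 was high for *SLC8A3*, at 15.1 CPM against 10.02 to 11.1 CPM. The total count of forelimb replicate 4 was 54998469, against 42151036 to 45608067 in the other forelimb libraries.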

How the results depend on the processing

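With TMM-scaled CPM 59 genes met the rule, 45 of them members, and with a floor of 0.5, 2 or 5 CPM 55, 53 and 50 genes did. Leaving out a library left between 64 and 138 genes, always with the 55 among them, since fewer values have to be separated. Requiring only that forelimb exceed hindlimb in each of the 5 pairs of the same number gave 864 of the 9447 genes. This rule on direction is not the edgeR fit with the replicate block. In the limb comparison edgeR called 31 genes, 208 with the replicate block and 101 with DESeq2, and 19 to 31 when a library was left out. Of the members it called 3, with the block 19, with DESeq2 16, and 1 to 2 when a library was left out. For all genes tested, the biological coefficient of variation in edgeR (spread between libraries beyond counting) was 0.313 without the block and 0.193 with it. The fits without the block, including those that left out a library, made no use of the pairing. The cause of the differences between these counts was not tested. The other scalings, filters and limma voom gave 28 to 31 genes and 3 to 4 members. The median log2 fold change of the members was 0.42, and 0.38 to 0.44 when a library was left out. Of 468 values of the named members under the alternatives 426 stayed on their side of the threshold, 24 passed it and 18 no longer did; that 0 changed direction is fixed by the choice of members and shows no stability. The 5 members with means under 5 CPM, with counts down to 13 in a library, are the least precise.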
